A study of Mus musculus with 2 samples.

Results

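Endothelial cells line vessels as a sheet that is sealed by several kinds of cell contact, and 10 genes of these contacts are described here: Pecam1, Cdh5, Cldn5, Esam, Ocln, Tjp1, F11r, Jam2, Gja4 and Gja5. They were chosen by symbol, and all 10 were among the 31053 genes of the count tables. Aortic arches came from male Apoe-/- mice of the C57BL/6 strain at 16 weeks of age. All mice lacked Apoe, which hinders the clearance of lipoproteins. Mice of the ND group had a normal diet and mice of the HFD group a high-fat, high-cholesterol diet. Dissociated cells of 2 aortas were pooled per diet and counted as 1 droplet library, so each diet had 1 library and neither animals nor replicates can be told apart.

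Adherens junctions hold endothelial cells together through VE-cadherin, the product of Cdh5, which binds its like on the next cell and catenins inside. Tight junctions narrow the cleft between cells with claudins such as Cldn5 and with occludin from Ocln, and ZO-1 from Tjp1 ties them to actin, while the immunoglobulin-type molecules Pecam1, Esam, F11r (JAM-A) and Jam2 (JAM-B) sit at the same borders and also take part in the passage of leukocytes. Gap junctions are channels between neighbouring cells, built in arterial endothelium largely from connexin 37 (Gja4) and connexin 40 (Gja5). In atherosclerosis the tightness of this sheet bears on how lipoproteins and leukocytes enter the wall.

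The ND and HFD tables held 10234 and 14225 barcodes, of which 5416 and 2739 were kept as cells with at least 200 genes, at least 200 UMIs (single counted RNA molecules) and at most 30% mitochondrial UMIs. The labels give the same numbers of cells. Kept cells held 27137322 and 17191279 UMIs, with 3732.5 and 5336 per cell at the median. The libraries shared 39 barcodes in all and 1 among kept cells.

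Cells were assigned by UMIs of marker genes, and none of the 10 junction genes was a marker. A cell passed the endothelial gate with at least 3 of 12 markers (Egfl7, Ptprb, Tie1, Kdr, Flt1, Ecscr, Emcn, Eng, Tek, Robo4, Cyyr1 and Erg) and at least 3 times as many as of any list of another cell family. This gate held 2235 ND and 1129 HFD cells, with medians of 8 and 9 of the 12 markers. Just at the limit were 21 ND and 4 HFD cells, and 4 and 2 cells lay just outside it. Among them the luminal gate asked for at least 2 of Cytl1, Vcam1 and Vwf, genes of the lining of large vessels, and held 122 and 48 cells. The capillary gate asked for at least 2 of Gpihbp1, Rgcc, Car4 and Cd300lg and held 1674 and 788 cells, so that most endothelial-gated cells of these aortic arch samples carried capillary markers. An arteriolar gate (Stc1, Hey1, Sema3g and Bmx) held 11 ND cells and 1 HFD cell. Another 392 and 282 cells met more than 1 of these subset rules and were left out of all 3 subset gates, so the gates leave out some cells with luminal markers.

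A level is the share of a gate's UMIs that came from a gene, scaled to CPM, the usual counts-per-million unit, with an exact 95% Poisson interval that covers counting error only. Haemoglobin and other erythroid RNA stood at 5452 CPM in ND and 39449.6 CPM in HFD endothelial-gated cells and is part of the total behind each level. Mitochondrial UMIs are part of it as well, at a median of 16.8% in ND and 21.9% in HFD kept cells. The counts come from tags at the 3' end, so levels are compared between gates and diets for 1 gene and not between genes. No difference was tested, because each diet had 1 library and cells of a library are not replicates. A gene was called past a fold when the ratio of levels exceeded 2 between cell types or 1.5 between diets, with at least 100 UMIs in both groups together, and the share of all genes past the same fold is given beside each count.

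The genes lie on 9 chromosomes of the mouse genome (GRCm38, GENCODE M21 gene bounds). Pecam1 (ENSMUSG00000020717) is on chromosome 11 from 106654217 to 106750628 and Cdh5 (ENSMUSG00000031871) on chromosome 8 from 104101625 to 104144511. Esam (ENSMUSG00000001946) is on chromosome 9 from 37528078 to 37538319 and F11r (ENSMUSG00000038235) on chromosome 1 from 171437535 to 171464603. Cldn5 (ENSMUSG00000041378) lies on chromosome 16 from 18776847 to 18778262, and Jam2 (ENSMUSG00000053062) on the same chromosome from 84774123 to 84825928. Ocln (ENSMUSG00000021638) is on chromosome 13 from 100496507 to 100552718 and Tjp1 (ENSMUSG00000030516) on chromosome 7 from 65296165 to 65527781. The connexin genes are on different chromosomes, Gja4 (ENSMUSG00000050234) on 4 from 127311421 to 127314039 and Gja5 (ENSMUSG00000057123) on 3 from 96904693 to 97077416.

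The bases just before the RefSeq start are shown for Gja4, Gja5 and Cldn5, because these 3 genes differed most between the ND luminal and capillary gates among the members with a listed start and over 100 UMIs. Each sequence is 250 bases of GRCm38.p6, written 5' to 3' on the strand of the gene and ending at the base before the start. Capitals mark 3 short cores searched on both strands: ACAAT as bound by SOX factors, GGAAG as bound by ETS factors such as Erg, and CACCC as bound by KLF factors. The cores do not overlap each other in these windows.
Gja4, chr4:127314040-127314289, minus strand: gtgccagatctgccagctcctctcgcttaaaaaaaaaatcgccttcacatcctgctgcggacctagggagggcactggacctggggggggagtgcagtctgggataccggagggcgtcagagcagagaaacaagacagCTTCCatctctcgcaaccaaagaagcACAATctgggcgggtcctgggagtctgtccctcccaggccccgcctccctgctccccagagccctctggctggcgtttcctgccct
Gja5, chr3:97032152-97032401, plus strand: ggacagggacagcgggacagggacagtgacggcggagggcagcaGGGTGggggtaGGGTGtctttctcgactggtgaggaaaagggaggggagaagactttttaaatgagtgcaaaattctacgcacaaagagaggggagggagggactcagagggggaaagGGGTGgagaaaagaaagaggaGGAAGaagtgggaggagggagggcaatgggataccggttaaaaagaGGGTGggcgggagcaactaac
Cldn5, chr16:18776597-18776846, plus strand: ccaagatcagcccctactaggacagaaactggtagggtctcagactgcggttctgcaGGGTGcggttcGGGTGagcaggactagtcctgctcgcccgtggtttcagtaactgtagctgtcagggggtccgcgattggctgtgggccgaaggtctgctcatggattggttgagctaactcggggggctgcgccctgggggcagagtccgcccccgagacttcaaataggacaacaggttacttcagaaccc
The Gja4 window held 1 SOX core, 1 ETS core and 0 KLF cores. The Gja5 window held 0 SOX cores, 1 ETS core and 4 KLF cores, and that of Cldn5 held 2 KLF cores and none of the others. Over all 32851 listed windows of this length, 27.7% held the SOX core, 64.1% the ETS core and 52.0% the KLF core, so that a match is common and names no bound site. RefSeq windows were listed for 6 of the 10 genes, and that of Gja5 lies before an inner start of its GENCODE bounds. Their GC content was 61.2% for Gja4, 56.4% for Gja5 and 59.6% for Cldn5, against a median of 52.4% over all windows.

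Which cells carried the junction genes was read first. Levels of 9 of the 10 genes were over 2-fold higher in endothelial-gated cells than in all other gated cells together, in both libraries, and these are all the members with at least 100 UMIs. These other gates hold mural, stromal, epithelial and immune cells and leave out lymphatic endothelial cells. Of 10454 genes in ND, 14.6% were higher by this limit, 19.2% lower and 33.8% either. Of 8905 genes in HFD, 17.2% were higher, 18.8% lower and 36% either. Members were chosen as endothelial genes, so their count describes the label and adds no evidence to it.

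Pecam1, the border molecule that also guides leukocytes across the sheet, stood at 1141 CPM (1120.4 to 1161) in ND and 1199.7 CPM (1174 to 1226) in HFD endothelial-gated cells. Its level in the other gates together was 39.7 CPM in ND and 16.2 CPM in HFD, 28.7-fold and 74.1-fold lower. Of the 351 ND UMIs outside the endothelium, 191 were in B cells, a cell type that is known to carry this protein. B cells of ND held 110.4 CPM (95.3 to 127), which was 9.68% of the endothelial level, while Cdh5 in the same cells was at 0.442% and Cldn5 at 0.548% of theirs. A Pecam1 UMI was found in 33.6% of 438 ND B cells and in 6.45% of 341 ND macrophages, at median depths of 3401.5 and 4391 UMIs. HFD had 11 B cells, with 2 Pecam1 UMIs in all. T cells held 43.4 CPM (28.9 to 62.8) in ND and 73.7 CPM (35.4 to 136) in HFD.

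Cdh5, which encodes VE-cadherin, was at 1698 CPM (1674 to 1723) in ND and 1563 CPM (1533 to 1592) in HFD endothelial-gated cells. In the other gates together it was at 9.96 and 9.65 CPM, 170.5-fold and 162-fold lower. Its highest level in a non-vascular gate of at least 20 cells was 32.01 CPM, from 3 UMIs of 20 HFD monocytes. Cdh5 was not counted in the 16 ND smooth muscle cells, where the exact interval reached up to 38.8 CPM.

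Esam, an adhesion molecule of endothelial tight junctions and platelets, was at 778.6 CPM (762 to 796) in ND and 651 CPM (632 to 670.04) in HFD endothelial-gated cells. It also reached mural and mesothelial cells. Smooth muscle cells of ND held 189 CPM (112 to 299), and the 5 pericytes of each library held 378 CPM (123 to 882) in ND and 591 CPM (295 to 1057) in HFD, where Pecam1 and Cdh5 were not counted at all. Mesothelial cells held 217 CPM (140.2 to 319.8) in ND and 396.5 CPM (290.3 to 529) in HFD. Fibroblasts held 3.995 and 8.41 CPM.

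Cldn5, the main claudin of endothelial tight junctions, was at 2849 CPM (2817 to 2881) in ND and 2699 CPM (2661 to 2738) in HFD. In the other gates together it was at 11.5 and 21.2 CPM, 247-fold and 127-fold lower. Macrophages of HFD held 23.9 CPM and those of ND 10.7 CPM, which was 0.885% and 0.377% of the endothelial level. In the same cells Cdh5 was at 0.516% and 0.773% and Esam at 1.06% and 0.919% of theirs. A Cldn5 UMI was found in 11.8% of HFD and 5.28% of ND macrophages, against 97.6% and 98.1% of capillary-gated cells.

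Tjp1, the scaffold ZO-1, had the smallest ratio of the 9 genes. It was at 255.6 CPM (246 to 265) in ND and 188 CPM (178 to 199) in HFD endothelial-gated cells and 10.1-fold and 13.8-fold lower in the others together. Fibroblasts held 53.4 CPM (46.0 to 61.6) and 38.5 CPM (29.6 to 49.1), or 20.9% and 20.4% of the endothelial level, while Cldn5 in the same fibroblasts was at 0.401% and 0.668%. Jam2 gave a like picture, with 334 and 258 CPM in endothelial-gated cells and 46.5 CPM (39.6 to 54.2) and 24.6 CPM (17.7 to 33.4) in fibroblasts, 13.9% and 9.54% of the endothelial level.

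F11r, the junctional adhesion molecule of epithelium and endothelium, was at 329.8 CPM (319 to 341) in ND and 268 CPM (256 to 280.4) in HFD endothelial-gated cells. Mesothelial cells, the epithelium-like cover of the serous cavities, were at the same height, with 381 CPM (277 to 512) in ND and 284 CPM (196 to 399) in HFD. The 21 epithelial cells of ND held 122 CPM (79.9 to 179), and HFD had no cell in that gate. Lymphatic endothelial cells held 328 CPM in both libraries, from 63 and 12 UMIs.

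Ocln, a membrane protein of tight junctions that is abundant in epithelium, was sparse. Endothelial-gated cells held 31 ND and 25 HFD UMIs, or 2.93 CPM (1.99 to 4.15) and 3.61 CPM (2.33 to 5.33), which was too few for a call. The highest ND levels were in epithelial cells with 28.2 CPM (10.4 to 61.5, 6 UMIs) and in luminal-gated cells with 27.8 CPM (17.2 to 42.5, 21 UMIs), and these do not differ beyond their intervals.

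The connexins were narrower. Gja5, which encodes connexin 40, was at 68.5 CPM (63.6 to 73.7) in ND and 56.4 CPM (51.0 to 62.3) in HFD endothelial-gated cells. The other gates together, mural cells included, gave 2 ND UMIs and 1 HFD UMI of it, 0.226 and 0.172 CPM. Neither lymphatic nor mural cells had a UMI of Gja5. The exact intervals reached up to 19.2 CPM in the 24 ND lymphatic cells and 38.8 CPM in ND smooth muscle.

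Gja4, which encodes connexin 37, was at 62.7 CPM (58.0 to 67.6) in ND and 41.0 CPM (36.4 to 46.0) in HFD endothelial-gated cells, and mural cells held more. Smooth muscle cells of ND held 242 CPM (153 to 363, 23 UMIs), and pericytes held 378 CPM (123 to 882) in ND and 269 CPM (87.2 to 627) in HFD, from 5 UMIs each. Fibroblasts, lymphocytes and macrophages were at or below 2.85 CPM.

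**Figure D1:**
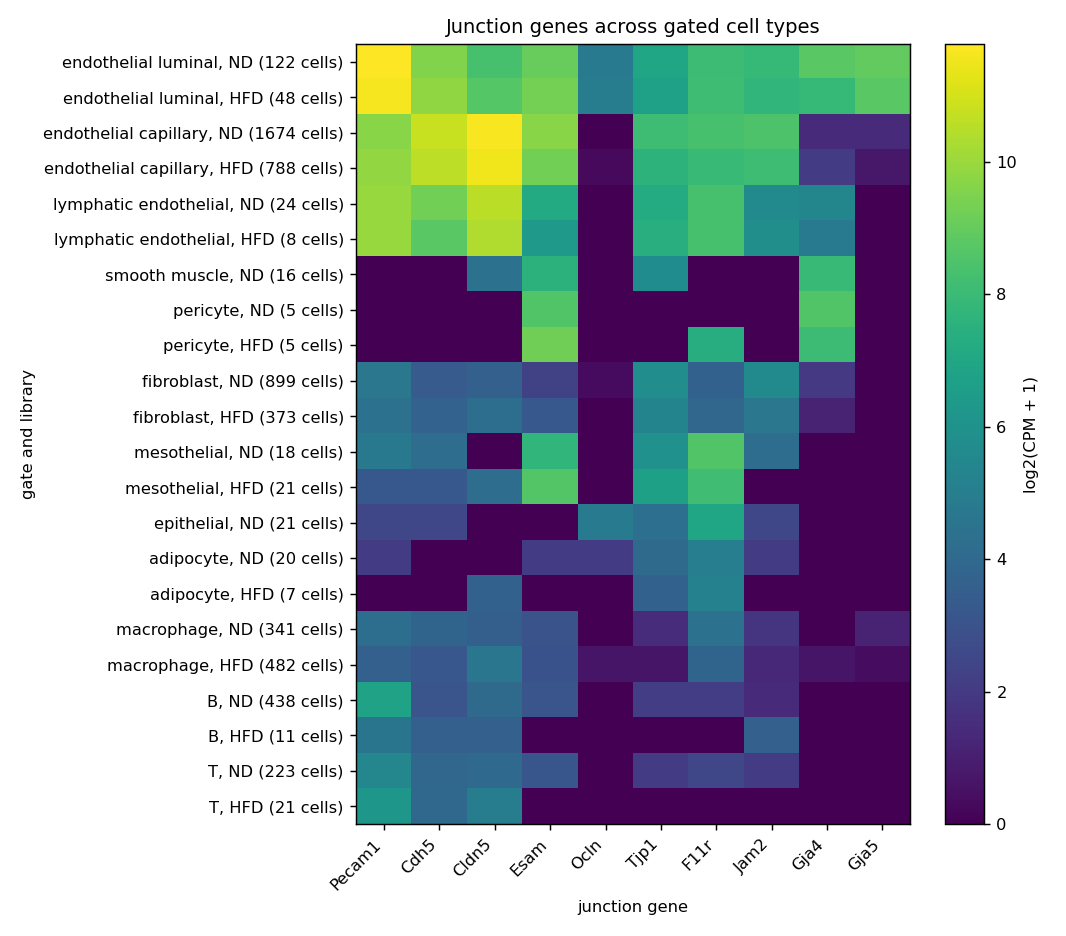
Levels of the 10 junction genes, as log2(CPM + 1), by gate and library for gates of at least 5 cells. Pecam1, Cdh5 and Cldn5 are bright in the luminal, capillary and lymphatic rows of both libraries, Gja5 is bright in the luminal rows, and Gja4 is bright in the luminal, smooth muscle and pericyte rows.

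Among endothelial-gated cells the junction genes split by vessel type, which was compared next between the luminal and capillary gates. Pecam1, Gja4, Gja5 and Ocln were higher in luminal cells, Cldn5 was lower in both libraries, and Esam, F11r and Jam2 stayed within 2-fold. In ND, 3 of 9 members with enough UMIs were over 2-fold higher and 3 over 2-fold lower in luminal cells, against 11.5% and 16.9% of 6929 genes, or 28.4% either way. In HFD, 2 of 8 were higher and 1 lower, against 13.1% and 17.2% of 5115 genes, or 30.4% either way, and Gja4 with 94 UMIs in both gates was not counted. The connexins had enough UMIs only through their luminal side, so their part in these counts follows from that choice.

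Pecam1 was at 3522 CPM (3389 to 3658) in ND luminal and 826 CPM (805 to 848) in ND capillary cells. In HFD the same gates held 3192 CPM (3003 to 3390.1) and 937 CPM (909 to 966). Luminal levels were thus 4.26-fold and 3.41-fold those of capillary cells, and every luminal value lay above every capillary value. Thinned to 1000 UMIs per cell, 90.8% of ND and 89.6% of HFD luminal cells had a Pecam1 UMI, against 53.8% and 59.0% of capillary cells. Thinning left out 2 ND luminal and 4 ND capillary cells.

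Cldn5 ran the other way. It was at 329.9 CPM (290.2 to 374) in ND luminal and 3267 CPM (3224 to 3310) in ND capillary cells, 9.90-fold lower in luminal cells. HFD luminal cells held 411 CPM (345 to 486) and HFD capillary cells 2991 CPM (2940 to 3043), a 7.28-fold difference. Thinned, 30.8% of ND and 27.1% of HFD luminal cells had a Cldn5 UMI, against 91.1% and 86.9% of capillary cells.

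Cdh5 was also lower in luminal cells, with 755 CPM (695 to 819.9) against 1784 CPM (1753 to 1816) in ND and 915 CPM (815 to 1024) against 1567 CPM (1530 to 1604) in HFD. The log2 difference was -1.24 in ND, past 2-fold, and -0.78 in HFD, within it. Tjp1 behaved likewise, with 122 against 279 CPM in ND (log2 -1.20) and 105 against 197 CPM in HFD (log2 -0.91). Scaling by the median of ratios, which centres the gates on their typical gene, took the HFD differences of Cdh5 and Tjp1 to -1.14 and -1.28, past 2-fold. Of 10 alternative settings, Cdh5 was past 2-fold in 1 and Tjp1 in 2. Cells thinned to 1000 UMIs took Cdh5 to -0.43, and gates from thinned cells took Tjp1 to -0.27.

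Esam was at 531 and 824 CPM in ND luminal and capillary cells and at 636 and 623 CPM in HFD, log2 differences of -0.63 and 0.03. F11r was at 272 and 325 CPM in ND and at 282 and 256 CPM in HFD, which left log2 differences of -0.26 (-0.47 to -0.05) and 0.14 (-0.18 to 0.44). Jam2 was at 236 and 357 CPM in ND and at 216 and 276 CPM in HFD. These 3 genes were the most even between both vessel types.

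Among the 9 ND members with enough UMIs, the connexins differed most. Gja5 was at 490.3 CPM (442 to 543) in ND luminal and 1.60 CPM (0.801 to 2.87) in ND capillary cells, and at 435 CPM (367 to 512) and 0.692 CPM (0.143 to 2.02) in HFD. The HFD capillary value rests on 3 UMIs among 788 cells. Luminal levels were 306-fold higher in ND, with a counting interval of the log2 difference from 7.40 to 9.27.

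Gja4 was at 441 CPM (395 to 491) in ND luminal and 1.75 CPM (0.904 to 3.06) in ND capillary cells, 252-fold higher. In HFD it was at 240.02 CPM (190.3 to 299) and 3.23 CPM (1.77 to 5.42), 74.3-fold higher. Thinned to 1000 UMIs per cell, 29.2% of ND and 25% of HFD luminal cells had a Gja4 UMI, against 0.240% and 0.254% of capillary cells.

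Ocln was also higher in luminal cells, at a low level. The 21 ND UMIs of luminal cells stood against 0 in 1674 capillary cells. With 3 UMIs over the capillary gate in place of 0 this was 63.6-fold higher, and the counting interval began at 47.3-fold. HFD luminal cells held 10 UMIs, or 30.0 CPM (14.4 to 55.2), and HFD capillary cells 1 UMI. Epithelial markers in the luminal gate summed to 19.9 CPM in ND, with 3 of 7 markers counted, and 0 of 7 were counted in HFD. Their part in the Ocln level was not tested.

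Cells of the luminal gate also held RNA of other cell types. Smooth muscle markers summed to 555 CPM in ND (5 of 7 markers) and 174 CPM in HFD (2 of 7), against 18.5 and 18.0 CPM in capillary cells and 27127.5 CPM in ND smooth muscle cells. Fibroblast markers summed to 774 and 1077 CPM in luminal cells. Pericyte markers were at 5.30 and 12.0 CPM there. Those smooth muscle cells held 242 CPM of Gja4, and the part of such RNA in the luminal levels was not tested.

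**Figure D2:**
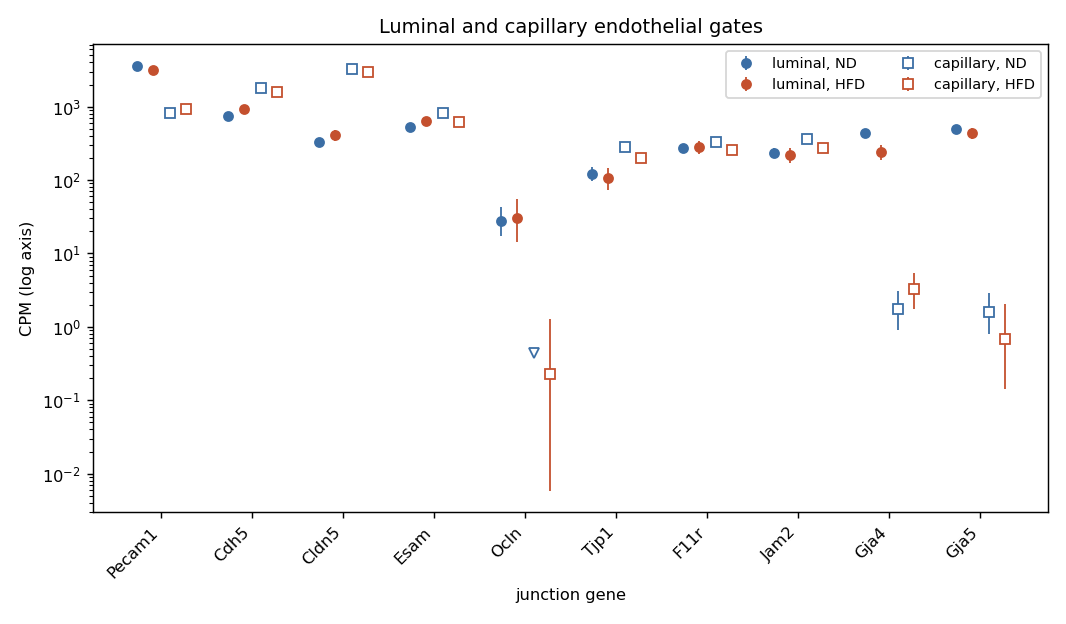
Level of each junction gene in CPM on a log axis, with exact 95% Poisson intervals, in luminal (filled circles) and capillary (open squares) gates of both libraries, where the open triangle is the limit of 3 UMIs for a gate without a UMI. Luminal values lie above capillary ones for Pecam1, Ocln, Gja4 and Gja5 and below them for Cdh5, Cldn5 and Tjp1.

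Graded by the number of the 3 luminal markers counted in a cell, and without regard to other subset markers, most levels differed from step to step. Pecam1 in ND was at 822, 914, 1683 and 3456 CPM in cells with 0, 1, 2 and 3 luminal markers. HFD gave 958, 1234, 2251 and 3219.9 CPM at the same steps. Cldn5 in ND went down through 3289, 2512, 1175 and 450.4 CPM, and in HFD from 3020.2 CPM at 0 markers to 552 CPM at 2 and 709 CPM at 3. Gja5 went from 4.82 to 508 CPM in ND and from 3.17 to 535 CPM in HFD. Esam went from 826 to 484 CPM in ND but was at 653 and 673 CPM at the ends in HFD. The steps held 1856, 195, 40 and 144 ND cells and 980, 66, 28 and 55 HFD cells.

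**Figure D3:**
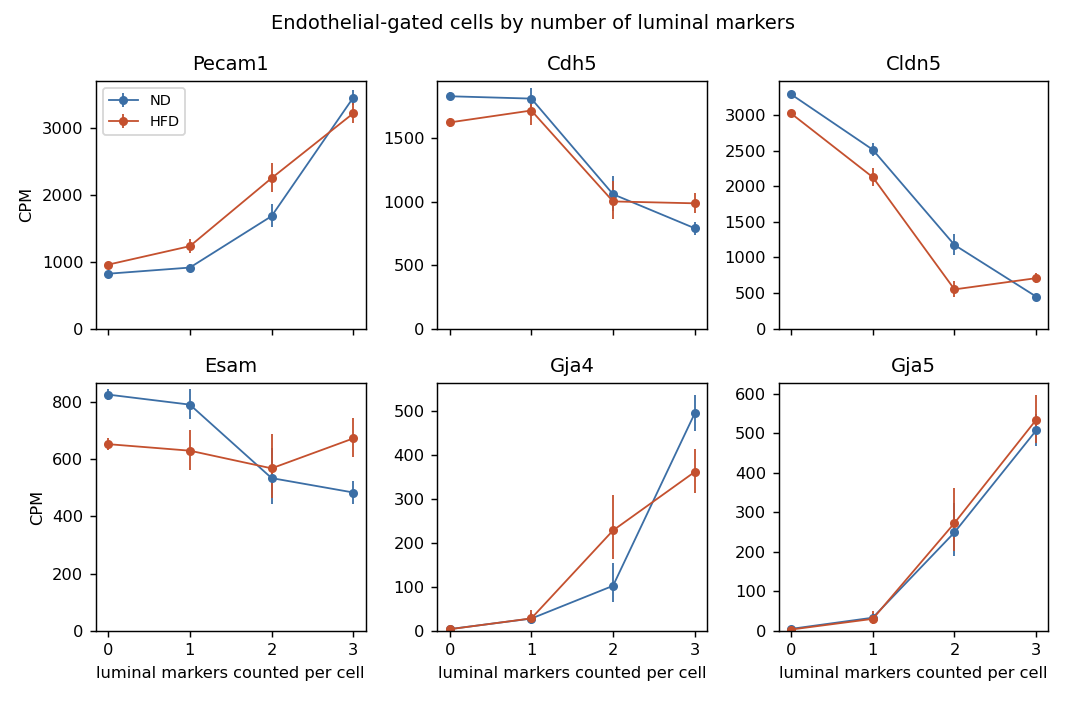
Levels of 6 junction genes in CPM against the number of luminal markers (Cytl1, Vcam1, Vwf) counted in an endothelial-gated cell, with exact 95% Poisson intervals. Pecam1, Gja4 and Gja5 are highest at 3 markers and Cldn5 is highest at 0 in both libraries. Gja4 is higher in HFD than in ND at 2 markers (228 against 102 CPM) and lower at 3 (362 against 495 CPM).

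The balance of Pecam1 and Cdh5 separated the vessel types as well. Of all UMIs of both genes, Pecam1 made up 82.3% (81.0 to 83.6) in ND luminal and 31.7% (31.0 to 32.3) in ND capillary cells. HFD gave 77.7% (75.4 to 79.9) and 37.4% (36.5 to 38.3). Lymphatic endothelial cells lay between, at 61.5% (55.8 to 66.9) in ND and 69.2% (54.9 to 81.3) in HFD, where the interval includes the luminal value. A UMI of both genes, which is a common rule for endothelial cells, was present in 87.4% of ND and 96.5% of HFD endothelial-gated cells, at median depths of 3485 and 5337 UMIs.

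Both connexins were often counted in the same luminal cells, and whether this exceeds their separate shares was not tested. In ND, 69 of 122 luminal cells had UMIs of both, 15 of Gja4 alone, 15 of Gja5 alone and 23 of neither. In HFD these numbers were 23, 3, 11 and 11 of 48 cells. No capillary cell of either library had both, 12 ND and 12 HFD cells had Gja4 alone, and 9 and 3 had Gja5 alone. With so few such cells the lack of overlap there cannot be read as a contrast to luminal cells.

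Across single endothelial-gated cells thinned to 1000 UMIs, Spearman's rho of Gja4 with Gja5 was 0.30 over 2228 ND cells and 0.06 over 1129 HFD cells. Pecam1 with Gja5 had a rho of 0.22 and 0.18, and Pecam1 with Cldn5 one of -0.16 and -0.12. Within the capillary gate every pair lay between -0.04 and 0.15 in both libraries. Within the luminal gate Gja4 with Gja5 had a rho of 0.06 over 120 ND cells and -0.17 over 48 HFD cells. Cldn5 with Gja5 had 0.24 and 0.39 there, against -0.19 and -0.09 over all endothelial-gated cells. Cells of a library share its depth and free RNA. These correlations in sparse counts, weak or over few cells, are given as a description.

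The other vascular gates were small. Lymphatic endothelial cells held 1524 CPM (1355 to 1709) of Cldn5 in ND and 1341 CPM (992 to 1772) in HFD, and their Pecam1 level was 86.7% and 82.1% of that in blood endothelial-gated cells. Their Esam was 18.7% and 12.6% and their Jam2 14.0% and 21.2% of that level. In the 11 arteriolar-gated ND cells Gja4 was at 425 CPM (27 UMIs) and Gja5 at 173 CPM (11 UMIs), against 1.75 and 1.60 CPM in capillary cells. Cdh5, Esam, Tjp1 and Jam2 were over 2-fold lower there than in ND capillary cells, 4 of 7 members, and 0 were higher, against 12.1% lower, 19.2% higher and 31.3% either way of 6501 genes. When cells with any number of capillary markers were let into this gate (341 ND cells), 0 of these 7 members differed by 2-fold, so the 4 calls rest on the choice of 11 cells.

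The diets were compared within endothelial-gated cells, which asks whether RNA of the members differed in HFD. By the 1.5-fold limit few of the members differed. Among other tight junction genes, described below, 6 of 9 were over 1.5-fold lower and 0 higher, with a median log2 difference of -0.64. Among adherens partners 1 of 8 was lower and 0 higher. Of 9 members with enough UMIs, 0 were over 1.5-fold higher in HFD and 1, Gja4, was over 1.5-fold lower, against 4.35% higher, 13.5% lower and 17.8% either way of 9095 genes. The median log2 difference (HFD minus ND) was -0.28 over the members and -0.15 over all genes, and 8 of the 9 members and 67.3% of all genes were below 0. Relative to the median gene each member's difference is thus higher by 0.15.

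By role, Pecam1 differed by 0.07 (0.03 to 0.11), Cdh5 by -0.12 (-0.15 to -0.09) and Esam by -0.26 (-0.31 to -0.21) on the log2 scale. Pecam1, Cdh5 and Cldn5 (-0.08, -0.10 to -0.05) stood above the median gene, and Cdh5 and Cldn5 turned to 0.02 and 0.06 when levels were scaled by the median of ratios and to 0.01 and 0.05 without mitochondrial, haemoglobin and ribosomal genes. Tjp1 was at 255.6 CPM in ND and 188 CPM in HFD (-0.44, -0.54 to -0.34), Jam2 at 334 and 258 CPM (-0.37) and F11r at 329.8 and 268 CPM (-0.30). The scaffold and both junctional adhesion molecules were lower in HFD than the median gene, without reaching 1.5-fold.

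Gja4 was at 62.7 CPM in ND and 41.0 CPM in HFD, a log2 difference of -0.61 (-0.82 to -0.41), and Gja5 at 68.5 and 56.4 CPM, one of -0.28 (-0.46 to -0.10). Gja4 was lower in HFD in 11 of 11 alternatives but past 1.5-fold in 5, with -0.47 by median of ratios. A limit of at most 20% mitochondrial UMIs took Gja4 to -0.05 and Gja5 to 0.32. Gja5 was past 1.5-fold in 2 of 11 alternatives, with -0.91 in cells thinned to 1000 UMIs. Luminal cells were 122 of 2235 endothelial-gated cells in ND and 48 of 1129 in HFD, and the part of this mix was not tested.

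In luminal cells alone, Gja4 was at 441 CPM (395 to 491) in ND and 240.02 CPM (190.3 to 299) in HFD, a log2 difference of -0.88 (-1.25 to -0.52), and these intervals do not overlap. It was the only 1 of 9 members past 1.5-fold, against 12.6% of 1617 genes lower, 6.49% higher and 19.1% either way. Gja4 stayed lower in HFD in 10 of 10 alternatives and past 1.5-fold in 8, while thinned cells gave -0.41 and gates from thinned cells -0.04. Thinned cells put Cdh5 (0.64) and Gja5 (-1.11) past 1.5-fold in its place. In cells with exactly 2 luminal markers Gja4 was higher in HFD, at 228 against 102 CPM, from 41 and 23 UMIs. With 3 markers it was lower in HFD, at 362 against 495 CPM, so the direction depends on how luminal cells are taken. Cldn5 at 2 markers was at 552 CPM in HFD and 1175 CPM in ND, and the part of capillary-type cells at this step was not tested. Smooth muscle markers were also lower in the HFD luminal gate, with 174 against 555 CPM, and their part was not tested.

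Gja5 in the same cells was at 490.3 and 435 CPM (-0.17, -0.46 to 0.11). Pecam1 was at 3522 CPM in ND and 3192 CPM in HFD (-0.14, -0.25 to -0.04). Cdh5 was at 755 and 915 CPM (0.28, 0.07 to 0.48), Cldn5 at 329.9 and 411 CPM (0.32, 0.01 to 0.62) and Esam at 531 and 636 CPM (0.26, 0.01 to 0.50). In cells thinned to 1000 UMIs the differences of Cldn5 and Esam were -0.01 and -0.32. Tjp1, F11r and Jam2 had intervals that included 0, and Ocln had 21 and 10 UMIs. The luminal markers themselves were lower in HFD, Cytl1 with 5450.0 CPM in ND and 3498 in HFD and Vcam1 with 1240.3 and 732 CPM, and the part of this in the other luminal differences was not tested.

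In capillary cells 0 of 7 members with enough UMIs were past 1.5-fold, against 4.94% of 7652 genes higher, 15.5% lower and 20.4% either way. Pecam1 was at 826 CPM in ND and 937 CPM in HFD (0.18, 0.12 to 0.24). Cdh5 was at 1784 and 1567 CPM (-0.19), Cldn5 at 3267 and 2991 CPM (-0.13) and Esam at 824 and 623 CPM (-0.40). Tjp1 was at 279 and 197 CPM (-0.50), F11r at 325 and 256 CPM (-0.35) and Jam2 at 357 and 276 CPM (-0.37), while the median gene of this gate was at -0.17. Cldn5 turned to 0.03 with either other scaling. Gja4, Gja5 and Ocln had 26, 14 and 1 UMIs in both libraries together.

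**Figure D4:**
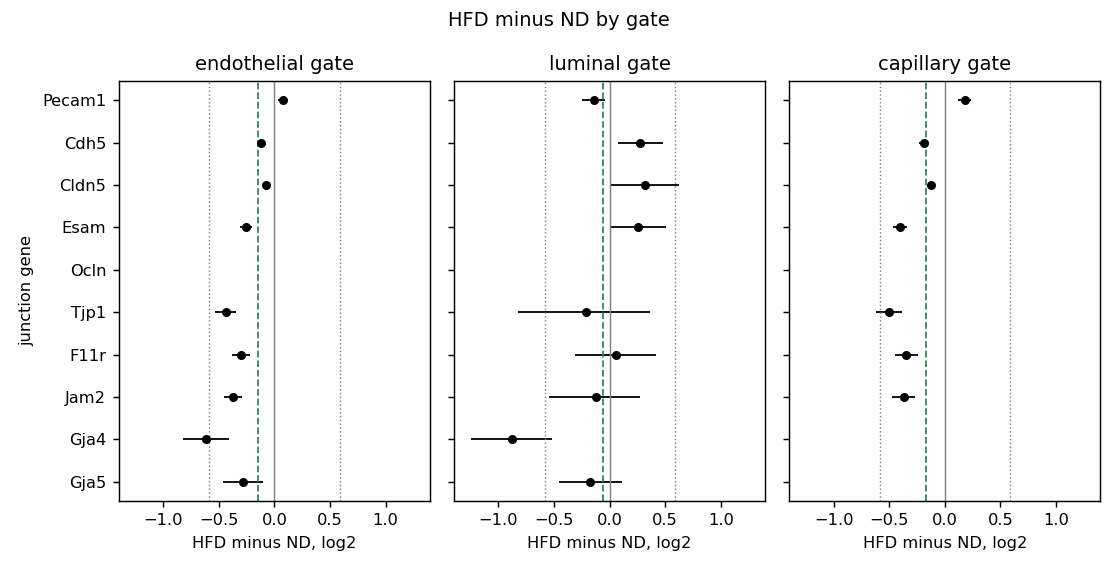
HFD minus ND as log2 difference with exact 95% counting intervals for members with at least 100 UMIs in the endothelial, luminal and capillary gates, where dotted lines mark 1.5-fold and the dashed line the median of all genes. Gja4 lies past 1.5-fold lower in the endothelial and luminal gates, and the other points lie between the dotted lines.

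Other genes of the same structures came from a list of 47, of which 46 were in the counts. Of 8 adherens partners with enough UMIs in endothelial-gated cells, 1 was over 1.5-fold lower in HFD and 0 higher, against 13.5% lower and 4.35% higher of all genes, and their median log2 difference was -0.43 against -0.15. The 1 past the limit was Vcl, which encodes vinculin, an actin linker that is drawn to junctions under tension, with 278 CPM in ND and 103 CPM in HFD, 2.70-fold lower. Afdn, which encodes afadin, the partner of nectins, was just within the limit at 414 and 276 CPM (-0.58), and Nectin2 was at 212 and 145 CPM (-0.55). Of the catenin genes, Ctnnb1 was at 764 and 556.5 CPM and Ctnna1 at 306 and 395 CPM. In capillary cells 3 of 8 were past 1.5-fold lower, Vcl, Afdn and Nectin2, and 0 higher, against 15.5% and 4.94% of all genes.

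Of 9 tight junction genes with enough UMIs, 6 were over 1.5-fold lower in HFD and 0 higher, against the 13.5% and 4.35% of all genes given above. These were Cldn12, Cgnl1, Jam3, Lsr, Magi1 and Magi3. Within the subset gates Lsr had too few UMIs for a call, with 71 ND and 23 HFD UMIs in luminal cells (-0.45, -1.19 to 0.25) and 6 and 2 in capillary cells. The part of the mix of subsets in its difference was not tested. Jam3, which encodes JAM-C, a partner of Jam2, was at 55.5 CPM in ND and 22.2 CPM in HFD. Magi1, a scaffold at cell contacts, was at 85.8 and 42.6 CPM, and Cgnl1, which encodes paracingulin, at 85.5 and 43.7 CPM.

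Of the connexin genes outside the members, 2 had enough UMIs. Gja1, which encodes connexin 43, was at 222 CPM in ND and 106 CPM in HFD, and Gjc1, which encodes connexin 45, at 14.2 and 37.1 CPM, so they lay on opposite sides. Of 15 regulators and border molecules, which include the gate markers Ptprb and Tek, Cd99l2 (30.8 and 19.6 CPM) and Sparcl1 (835 and 335 CPM) were lower and 0 higher, near the 13.5% and 4.35% of all genes. Plvap, the diaphragm protein of fenestrae and caveolae, was at 333 CPM in ND and 852 CPM in HFD luminal cells but at 65.8 and 31.8 CPM in capillary cells.

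The same lists were compared between luminal and capillary cells, where 11.5% of all genes in ND and 13.1% in HFD were over 2-fold higher in luminal cells and 16.9% and 17.2% lower. Of adherens partners, 0 of 8 were higher and 4 lower in ND, and 0 of 7 higher and 4 lower in HFD. Of tight junction genes, 1 of 6 was higher and 3 lower in ND, and 1 of 6 higher and 5 lower in HFD. Of regulators and border molecules, 5 of 15 were higher and 4 lower in ND, and 4 of 14 higher and 5 lower in HFD. Cgnl1 was at 493 and 21.7 CPM in ND luminal and capillary cells and at 282 and 10.8 CPM in HFD, 22.7-fold and 26.0-fold higher in luminal cells. Heg1, a receptor of endothelial junctions, was 11.2-fold and 4.49-fold higher and Icam2 2.60-fold and 2.29-fold higher there. Lsr, which encodes angulin-1 of tricellular contacts, had 71 UMIs in ND luminal cells (94.1 CPM) and 6 in capillary cells (0.875 CPM), too few for a call. Jup, which encodes plakoglobin, was lower in luminal cells, at 114 against 503 CPM in ND and 90.01 against 594 CPM in HFD. Gja1 was at 9.28 against 210.5 CPM in ND and 21.0 against 92.5 CPM in HFD, the reverse of Gja4 and Gja5. Jam3 had 1 UMI in ND luminal cells against 455 in capillary cells, and 0 against 103 in HFD. With 3 UMIs in place of 0 the HFD level was 2.64-fold lower, and the log2 interval reached up to -1.08.

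Over 22 points, each a gate or subset of at least 20 cells in 1 library, the genes most like each member were sought by Pearson's r of log2(CPM + 10) among 9890 genes with at least 200 UMIs. Pecam1 was nearest to Emcn (0.96) and Myct1 (0.96), Cdh5 to Egfl7 (0.99) and Tie1 (0.98), Cldn5 to Cyyr1 (0.98) and Ushbp1 (0.98) and Esam to Rapgef5 (0.97) and Gata2 (0.97). Emcn, Egfl7, Tie1 and Cyyr1 are markers of the endothelial gate. Tjp1 was nearest to Dab2ip (0.98) and Arhgap29 (0.97), F11r to Nectin2 (0.93) and Efna1 (0.92) and Jam2 to Ptprm (0.98) and Jcad (0.97). Gja4 was nearest to Dhh (0.98) and Amigo2 (0.97), and Gja5 to Gkn3 (0.98) and Dhh (0.97), so Dhh was common to both connexins. Ocln, with 66 UMIs over these points, was nearest to Adh7 (0.93). The points share 2 libraries and their depth.

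Not all junction RNA lay in cells of 1 type. Barcodes with markers of several families numbered 866 in ND and 518 in HFD, and 513 and 418 of them had at least 3 endothelial markers. The 866 and 518 barcodes held 50.4% of all Gja4 UMIs of kept cells in ND and 57.1% in HFD, and 44.4% and 44.7% of those of Gja5, but 12.9% and 17.7% of those of Cldn5. Their Gja4 level was 104 CPM (96.8 to 112) in ND and 99.4 CPM (89.8 to 110) in HFD, outside the diet comparisons above. Doublet scores of the highest 6% were found in 229 ND and 109 HFD barcodes of this class, 26.4% and 21.0% of it. In 199 ND barcodes that joined endothelial and fibroblast markers, Gja4 was at 277 CPM and Pecam1 at 1647 CPM, above the 62.7 and 1141 CPM of the endothelial gate.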

How the data were processed

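Aortic arch cells of 1 ND and 1 HFD library were measured by 10x Genomics droplet sequencing. The authors made UMI counts per gene and barcode with Cell Ranger 3.0.1, per the file headers, on mm10, per the labels. The counts were deposited raw, without normalization. The gene annotation was not given in the sources used here. A joined table of both libraries, whose UMI total was the sum of theirs, was not used. Some genes that the naming rules would give are not reported here.

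Barcodes were kept by the limits in the study's methods, and gates, sums, levels and exact intervals at 95% were computed from the counts with scipy 1.17.1, pandas 2.3.3 and numpy 2.4.6 under Python 3.11.15. Intervals are Poisson for levels, Clopper-Pearson for shares and conditional binomial for log2 differences. Gates came from 18 marker lists, and ties between families were called mixed. Scrublet in scanpy 1.11.5 marked 95 ND and 8 HFD cells as doublets, which were kept, and the highest 6% of scores were left out as an alternative. Cells were thinned to 1000 UMIs for shares and correlations. The steps were tested on simulated counts. Alternatives changed the filter, gates, doublets, scaling, weights and depth 1 at a time. Genes named are the 10 members, genes of the junction list past the fold, and the 2 genes most like each member. Members, lists and tests were chosen with earlier results of these data known. Depth limits small gates most: 3 UMIs are 3.98 CPM in the ND and 9.00 CPM in the HFD luminal gate.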

Additional observations from a re-analysis of the deposited data

Results flagged for a closer look

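Of the members, 4 junction genes were singled out because HFD and ND differed in opposite directions in the luminal and capillary gates, with both counting intervals clear of 0. The difference between the gates was not tested, since each diet had 1 library. The share of all genes that meet this rule was not computed. The median gene was at -0.06 in the luminal and -0.17 in the capillary gate. In the capillary gate Cdh5 thus lay near the median gene and Cldn5 above it. Pecam1 was lower in HFD in luminal cells (log2 difference -0.14) and higher in capillary cells (0.18). Cdh5 was higher in luminal (0.28) and lower in capillary cells (-0.19). Cldn5 was higher in luminal (0.32) and lower in capillary cells (-0.13), where its sign held in 9 of 11 alternatives. A Cldn5 UMI was found in 61.5% of ND and 56.25% of HFD luminal cells, so the share did not follow the level. Thinned cells gave a luminal difference of -0.01 and gates from thinned cells 1.10. Esam was higher in luminal (0.26) and lower in capillary cells (-0.40), with the luminal sign held in 8 of 10 alternatives. Luminal cells had median depths of 4860.5 UMIs in ND and 6238 in HFD. Thinned to 1000 UMIs per cell, they turned the luminal difference of Esam to -0.32. An Esam UMI was then found in 52.5% of ND and 39.6% of HFD luminal cells, so its luminal direction depends on depth. The luminal signs of Pecam1 and Cldn5 held in 9 of 10 and that of Cdh5 in 10 of 10. Fibroblast markers in the luminal gate summed to 774 CPM in ND and 1077 CPM in HFD and Gpihbp1, a capillary marker, was at 25.2 and 18.0 CPM, and their part was not tested.

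Barcodes that the filter removed were singled out because they carried junction RNA outside every comparison. The 4818 ND barcodes held 1937 CPM of the 10 genes summed and the 11486 HFD barcodes 2465 CPM, against 3733 and 3649 CPM in kept cells. In UMIs this was 10981 in ND and 59445 in HFD. Of Pecam1 the removed barcodes held 1279 and 8299 UMIs, against 18172 and 11892 in kept cells. Of Cdh5 they held 2371 and 12312, against 22090 and 13732. A larger part of these RNAs thus lay outside the diet comparisons in HFD than in ND. Without mitochondrial UMIs the removed barcodes held 4315 and 5568 CPM and the kept cells 4332 and 4495 CPM.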

How the results depend on the processing

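No paired analysis was possible because each diet had 1 library and the labels give no replicate numbers, and for the same reason no replicate could be left out. The planned settings, and the gates from thinned cells and with any capillary markers, both chosen after seeing the data, were run for each count of members. Counts of the other junction genes were made under the main setting only. The 1 member past 1.5-fold in endothelial-gated cells became 0 with at most 20% mitochondrial UMIs, with no marker of another family, with median of ratios scaling, without mitochondrial, haemoglobin and ribosomal genes, and in cells where Pecam1 and Cdh5 were both counted. In luminal cells the count of 1 became 2 after thinning and 3 with gates from thinned cells. In capillary cells 0 became 2 with no marker of another family, 2 with no minimum of UMIs and 1 after thinning. Between HFD luminal and capillary cells, 3 became 5 with median of ratios scaling, with no minimum and with gates from thinned cells. The 4 members past 2-fold in arteriolar cells became 0 with any capillary markers and with gates from thinned cells. There Tjp1 turned to a log2 difference of 0.0931 after thinning, Cdh5 to 0.15 and Esam to 0.000197 with any capillary markers, and Cdh5 to 0.0232 and Esam to 0.47 with gates from thinned cells. The causes were not tested. Against other gates 9 or 10 members were past 2-fold under each setting but 1, where no marker of another family left 7 of 7 in ND and 6 of 6 in HFD. The differences of Pecam1, Cldn5 and Gja5 between luminal and capillary cells kept their direction and stayed past 2-fold in each setting that gave a value. Small gates and the depth of 48 HFD luminal cells limit the rest.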
